A study of Mus musculus with 6 samples.

Results

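The 9 genes examined here serve serine synthesis and folate-dependent one-carbon metabolism, and they were compared between metastasis-initiating cells (MICs) and non-MICs of PyMT mammary tumors. They were taken as a fixed list, Phgdh, Psat1, Psph, Shmt1, Shmt2, Mthfd1, Mthfd1l, Mthfd2 and Aldh1l2, and all 9 were found by symbol among the 22310 genes of the deposited table. The cells came from tumors of MMTV-PyMT mice on the FVB/N background, in which the MMTV promoter drives the polyoma middle T oncogene in mammary epithelium. They were plated overnight in DMEM/F12 with serum, insulin and EGF and were then sorted as Lin-CD24+CD90+ (MICs, 3 libraries) or Lin-CD24+CD90- (non-MICs, 3 libraries), so that both populations carry the same transgene and saw the same medium. The labels call the genotype WT and name no separate treatment beyond the sort. Replicates are numbered 1 to 3 in both populations, and same-numbered libraries are called a pair here. The sources used here do not say whether tumors were pooled within a replicate, so p-values measure the spread between these libraries. Whole reads could be recovered from the deposited values and numbered between 31467281 and 51759769 per library.

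The serine pathway branches from glycolysis. PHGDH oxidizes phosphoglycerate, PSAT1 transfers an amino group from glutamate, and PSPH removes the phosphate to leave serine. The hydroxymethyltransferases SHMT1 in the cytosol and SHMT2 in mitochondria then split serine into glycine and a one-carbon unit carried on tetrahydrofolate. In mitochondria MTHFD2 oxidizes that unit, MTHFD1L releases it as formate and ALDH1L2 burns it to CO2, whereas in the cytosol the single trifunctional enzyme MTHFD1 handles it for purine, thymidylate and methionine synthesis. Several of these genes are known as targets of the amino acid response factor ATF4, and the pathway is known for supplying nucleotides to proliferating tumor cells.

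No member was called different between MICs and non-MICs. None of the 9 passed an adjusted p-value of 0.05 (limma), against 0% of all genes, of which 322 had an unadjusted p-value under 0.05. Thy1, the gene of the CD90 gate, was not called in that fit either (limma, adjusted p = 0.816). The 0 of 9 in that fit is therefore no result about the list. None of the 9 passed with the replicate number as a block, against 0.13%. The edgeR test with the block also called none of them, against 1.41% of all genes. The values of the MIC and non-MIC libraries overlapped in each of the 9 genes. Groups that did not overlap were found for 6.24% of all genes, a share at which 0 of 9 is no result about the list. Psat1 and Psph, 2 of the 3 serine synthesis genes, were higher in MICs in each of the 3 pairs, and Shmt1 was lower in each. Of all genes, 12.5% were higher and 18.8% lower in MICs in every pair, and 2 and 1 of 9 members, read against those shares, are no result about the list. The directions of Psat1, Psph and Shmt1 in each pair were the same with TMM scaling and with quantile normalization.

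The promoter sequences of genes with such a direction in every pair are shown where the annotation leaves them free of exons, and Phgdh is shown beside them as the first enzyme of the pathway, whose direction differed between pairs. RefSeq windows on GRCm38.p6, from 250 bases before to 50 bases after the RefSeq start of a gene, were at hand for 8 of the 9 members, with a pair of windows for Psat1 and none for Aldh1l2. Printed 5′ to 3′ on the gene's strand with CpG dinucleotides in capitals, the stretches lie on the minus strand at chr19:15925060-15925309 and chr19:15924623-15924863 for Psat1, chr11:60811266-60811466 for Shmt1 and chr3:98339991-98340219 for Phgdh.
Psat1 upstream window: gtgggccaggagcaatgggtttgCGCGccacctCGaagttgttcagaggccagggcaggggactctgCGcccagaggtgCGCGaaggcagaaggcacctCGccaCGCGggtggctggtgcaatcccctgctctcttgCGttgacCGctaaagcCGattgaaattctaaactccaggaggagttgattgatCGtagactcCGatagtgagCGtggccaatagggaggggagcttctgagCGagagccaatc
Psat1 downstream window: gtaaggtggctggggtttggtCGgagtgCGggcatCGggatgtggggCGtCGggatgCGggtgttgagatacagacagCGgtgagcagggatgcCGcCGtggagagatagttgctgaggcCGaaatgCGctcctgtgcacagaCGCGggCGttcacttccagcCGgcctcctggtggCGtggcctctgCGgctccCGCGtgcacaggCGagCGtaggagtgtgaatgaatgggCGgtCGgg
Shmt1: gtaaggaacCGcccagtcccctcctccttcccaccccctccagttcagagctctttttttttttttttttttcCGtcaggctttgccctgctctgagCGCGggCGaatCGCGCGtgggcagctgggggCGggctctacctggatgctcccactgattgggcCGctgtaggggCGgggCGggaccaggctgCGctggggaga
Phgdh: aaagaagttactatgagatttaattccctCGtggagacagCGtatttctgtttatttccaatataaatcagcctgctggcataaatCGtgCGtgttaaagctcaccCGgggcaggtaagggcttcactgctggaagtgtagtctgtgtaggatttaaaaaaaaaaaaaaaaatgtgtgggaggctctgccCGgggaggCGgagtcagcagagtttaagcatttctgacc
These windows follow the RefSeq starts. The GENCODE gene models of Psat1 and Shmt1 begin further upstream, so their stretches lie within the GENCODE gene spans given below, outside annotated exons. The Psat1 stretches hold 16 CpG dinucleotides in 250 bases and 23 in 241, the Shmt1 stretch 13 in 201 and the Phgdh stretch 7 in 229. The whole windows of the members held between 8 and 30 CpG dinucleotides, with a median of 16, against a median of 7 over the 32851 windows searched. Those windows were not limited to genes expressed here, so the medians do not set the members against other expressed genes. The window of Psph lay wholly within annotated exons and is not printed. None of the 9 member windows contained TGATGNAA, the composite site of ATF4 with a C/EBP partner, which 3.97% of all windows hold on either strand. None contained the E-box CACGTG, found in 7.15%, or the E2F motif TTTNGCGC, found in 1.38%. The absence of these letters concerns only these windows.

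Per length of exon, Shmt2, Psat1 and Phgdh were the most abundant members. In RPKM, reads per kilobase of exon scaled to the reads of the library, Shmt2 averaged 55.0 ± 9.11 (SD, n = 6), Psat1 52.4 ± 17.5 and Phgdh 48.3 ± 19.1, placing them at the 96.1, 95.9 and 95.5 percentiles of all genes. These 3 did not differ beyond their spread, since Shmt2 exceeded Psat1 in 3 of the 6 libraries and Psat1 exceeded Phgdh in 3 of 6. Mthfd1 followed with 30.1 ± 4.24 and Mthfd2 with 24.2 ± 5.90, Mthfd1 being the higher in 5 of 6 libraries. Below them came Mthfd1l with 13.1 ± 3.32 and Shmt1 with 9.25 ± 2.46, and Mthfd1l exceeded Shmt1 in all 6. Psph, at 6.93 ± 1.73, was below Shmt1 in 5 of 6. Aldh1l2 was the lowest at 1.14 ± 0.528, the 50.7 percentile of all genes, and lay below Psph in all 6. With the length of the longest transcript in place of all exons, Psat1 came before Shmt2 and the other places stayed.

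**Figure D1:**
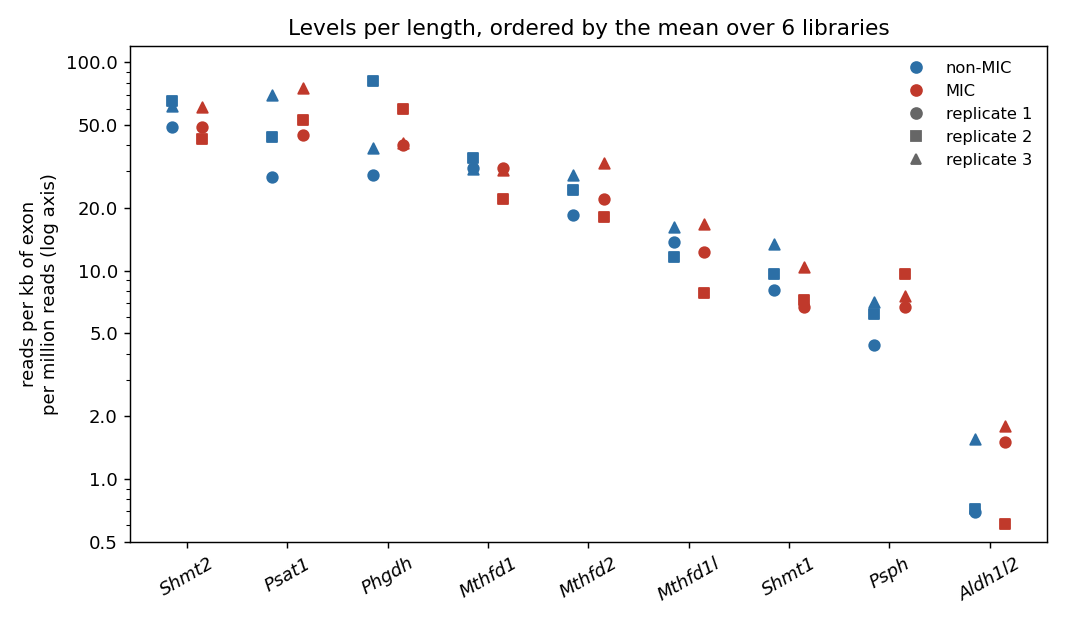
RPKM computed from recovered reads (log axis) of the 9 genes in 6 libraries, ordered by their mean. Blue marks are non-MICs and red marks MICs, and the shape gives the replicate number. The ranges of blue and red marks overlap for every gene, and the means run from 55.0 for Shmt2 to 1.14 for Aldh1l2.

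The first enzyme of serine synthesis varied more between replicates than between populations. Phgdh lies on chromosome 3 (98313170 to 98339990, minus strand, GRCm38) and had deposited values, which are counts scaled to a common library total, of 3493, 5176 and 3568 in MIC replicates 1, 2 and 3 and of 2503, 7106 and 3394 in the non-MIC replicates. Both replicate 2 libraries were the highest of their population, and within that pair the non-MIC library was the higher. On the log2(value + 1) scale the difference of MICs from non-MICs was 0.48, -0.46 and 0.07 in the pairs 1 to 3. The mean difference was 0.03, with a standard error of 0.39 without the block, and its 95% interval with the block ran from -0.38 to 0.44 (limma, adjusted p = 0.961 with the block).

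Psat1, the aminotransferase, was higher in MICs in all 3 pairs. It lies on chromosome 19 (15904678 to 15947337, minus strand) and had values of 6669, 7864 and 11185 in MIC replicates 1 to 3 and of 4191, 6534 and 10388 in non-MICs. Replicate 3 held the most Psat1 and replicate 1 the least in both populations, and the ranges overlapped. The MIC library had 1.59 times the non-MIC value in pair 1, 1.20 times in pair 2 and 1.08 times in pair 3. The log2 difference of 0.35 had a standard error of 0.36 without the block and of 0.17 with it (limma, adjusted p = 0.465 in the latter fit).

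Psph, the phosphatase that completes the pathway, was also higher in MICs in all 3 pairs. It lies on chromosome 5 (129765558 to 129787449, minus strand), and its values were 1018, 1468 and 1141 in MICs, against 669, 940 and 1067 in non-MICs. Only the non-MIC library of replicate 3 reached into the range of the MICs. The MIC to non-MIC ratio was 1.52, 1.56 and 1.07 in pairs 1, 2 and 3, so pair 3 again showed the smallest difference. The log2 difference was 0.45, with a 95% interval from 0.06 to 0.84 in the fit with the block. This was the one member with an unadjusted p-value under 0.05 in that fit, a level that 11.2% of all genes reached, and adjusted over all genes its p-value was 0.423 (limma). Exons of Psph share 452 bases, or 10.4% of its exonic length, with exons of Cct6a on the opposite strand. The paper names a stranded library method (TruSeq), but whether the counting used strand is not given in the sources used here.

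Shmt1 and Shmt2 encode the cytosolic and mitochondrial enzymes for the same reaction. Shmt1 on chromosome 11 (60788104 to 60811718, minus strand) had values of 914, 981 and 1419 in MICs and of 1104, 1307 and 1818 in non-MICs. Each MIC library was below its non-MIC partner, while the populations overlapped because replicate 3 was high in both. The differences were -0.27, -0.41 and -0.36 in pairs 1, 2 and 3, with an SD of 0.07, the smallest among the 9 genes. The mean difference of -0.35 had a 95% interval from -0.70 to 0.01 with the block (limma, adjusted p = 0.45). Its exons share 4.74% of their length with Smcr8 on the opposite strand.

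Shmt2 on chromosome 10 (127517123 to 127522444, minus strand) had values of 5359, 4670 and 6667 in MICs and of 5340, 7138 and 6752 in non-MICs. Pairs 1 and 3 were nearly level, with ratios of MIC to non-MIC of 1.00 and 0.987, and only pair 2 stood apart, at 0.654. The mean log2 difference was -0.21, with a 95% interval from -0.59 to 0.18 with the block (limma, adjusted p = 0.669). Per length, the ratio of Shmt2 to Shmt1 was 7.32, 5.95 and 5.87 in MICs, against 6.04, 6.82 and 4.64 in non-MICs. The mitochondrial form was thus the more abundant in every library, and pairs 1 and 3 had the higher ratio in MICs, pair 2 in non-MICs.

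Mthfd1, the cytosolic trifunctional enzyme, was the steadiest member among non-MICs. It lies on chromosome 12 (76255298 to 76319803, plus strand), and its values were 4858, 3434 and 4711 in MICs, against 4853, 5421 and 4766 in non-MICs. The highest non-MIC library exceeded the lowest by 1.14 times, and MIC replicate 2 alone lay far below the others. Pairs 1 and 3 differed by 0.00 and -0.02 on the log2 scale and pair 2 by -0.66. The mean difference was -0.22, with a 95% interval from -0.61 to 0.16 with the block (limma, adjusted p = 0.645).

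Among the mitochondrial enzymes, Mthfd2 had values of 2700, 2205 and 4026 in MICs and of 2259, 2967 and 3533 in non-MICs. It lies on chromosome 6 (83305691 to 83325908, minus strand) and encodes the dehydrogenase and cyclohydrolase of the pathway. In pairs 1 and 3 MICs held more, by 0.26 and 0.19, and the difference was -0.43 in pair 2, so that the mean difference was 0.01 with a 95% interval from -0.38 to 0.39 with the block (limma, adjusted p = 0.995). Set against Mthfd1 within each library, Mthfd2 took the same direction in every pair. The per-length ratio of Mthfd2 to Mthfd1 was 0.708, 0.818 and 1.09 in MICs, against 0.593, 0.697 and 0.944 in non-MICs, and on the log2 scale it was higher in MICs by 0.26, 0.23 and 0.21 in pairs 1, 2 and 3. The mean difference of 0.23 was larger than the SD of the 3 pair differences, 0.025, and smaller than the SD between replicates, 0.32 in MICs and 0.34 in non-MICs, and the populations overlapped. A ratio within a library does not depend on how libraries are scaled, and no test was made on it. The corresponding ratio of Mthfd1l to Mthfd1, computed after the values had been seen, differed by -0.16, 0.09 and 0.06. The ratio of Psat1 to Phgdh, outside the planned ratios, was also higher in MICs in every pair, by 0.19, 0.72 and 0.03. How often ratios of other genes keep a direction in every pair was not computed.

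Mthfd1l, the formate-releasing enzyme, lies on chromosome 10 (3973118 to 4167081, plus strand) and had values of 1918, 1213 and 2609 in MICs and of 2135, 1805 and 2531 in non-MICs. MIC replicate 2 was again the lowest library. The differences were -0.15, -0.57 and 0.04, with a mean of -0.23 and a 95% interval from -0.60 to 0.15 with the block (limma, adjusted p = 0.629).

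Aldh1l2, the least abundant member, also had the widest differences between libraries. It lies on chromosome 10 (83487450 to 83534140, minus strand), and its values were 394, 160 and 472 in MICs, against 182, 188 and 408 in non-MICs, from between 144 and 698 recovered reads. MIC replicate 1 had 2.16 times the value of its partner, the largest ratio among the members, whereas the ratio was 0.852 in pair 2 and 1.16 in pair 3. The mean log2 difference was 0.36, with a 95% interval from -0.21 to 0.93 with the block (limma, adjusted p = 0.611). Exons of the gene share 14.1% of their length with D10Wsu102e on the opposite strand.

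**Figure D2:**
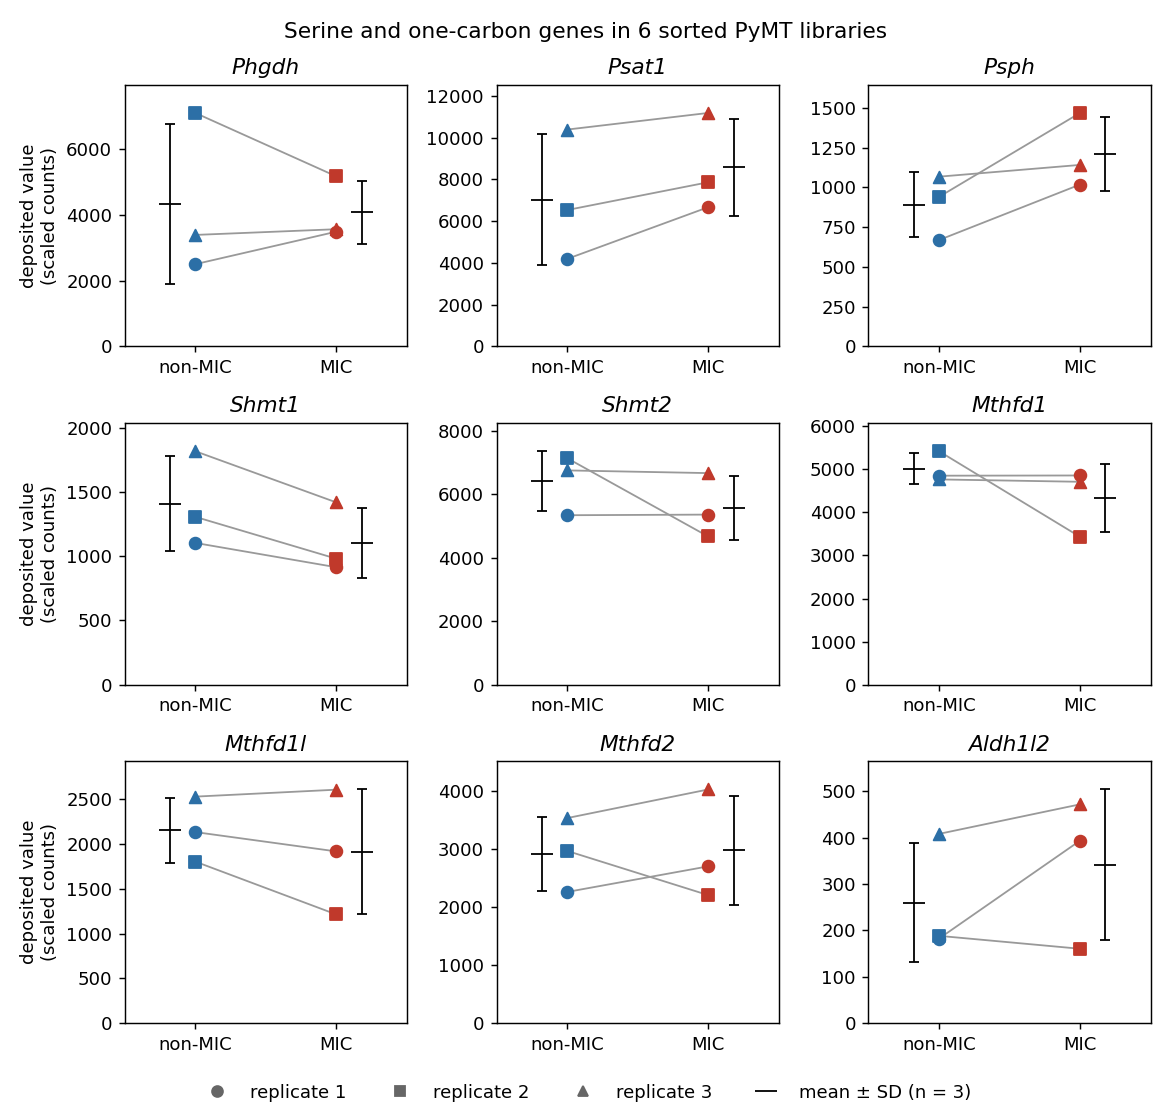
Deposited values (counts scaled to the library total, linear axes from 0) of the 9 genes in non-MICs (blue) and MICs (red). Grey lines join same-numbered libraries, and black bars are mean ± SD of 3 libraries. The 3 lines of Psat1 and of Psph go up towards MICs and those of Shmt1 go down, while the squares of pair 2 go down for the other 6 genes.

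The pairs differed from one another across the list. In pair 1, 7 of the 9 members were higher in MICs, with a median difference of 0.26 over the 9, and in pair 3 the count was 6, with a median of 0.07. In pair 2, 7 of the 9 were lower in MICs and the median was -0.43, the exceptions being Psat1 and Psph. Of all genes, 45.2%, 53.5% and 35.8% had the higher value in the MIC library of pairs 1, 2 and 3, and the medians over all genes were -0.02, 0.04 and -0.05. Among genes with a mean value of at least 100, 56.6%, 53.4% and 65.1% were lower in MICs in pairs 1, 2 and 3. Their median in pair 2 was -0.04. With TMM scaling the counts of members higher in MICs were 7, 2 and 8, because Shmt2 and Mthfd1 took the other sign in pair 3. The shares of all genes were 47.0%, 44.0% and 51.1%, with a median of -0.02 in pair 2. Among genes with a mean value of at least 100, 62.2% were then lower in MICs in pair 2, with a median of -0.15. Over all 3 pairs the median difference of the 9 was 0.01, against -0.04 over all genes.

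**Figure D3:**
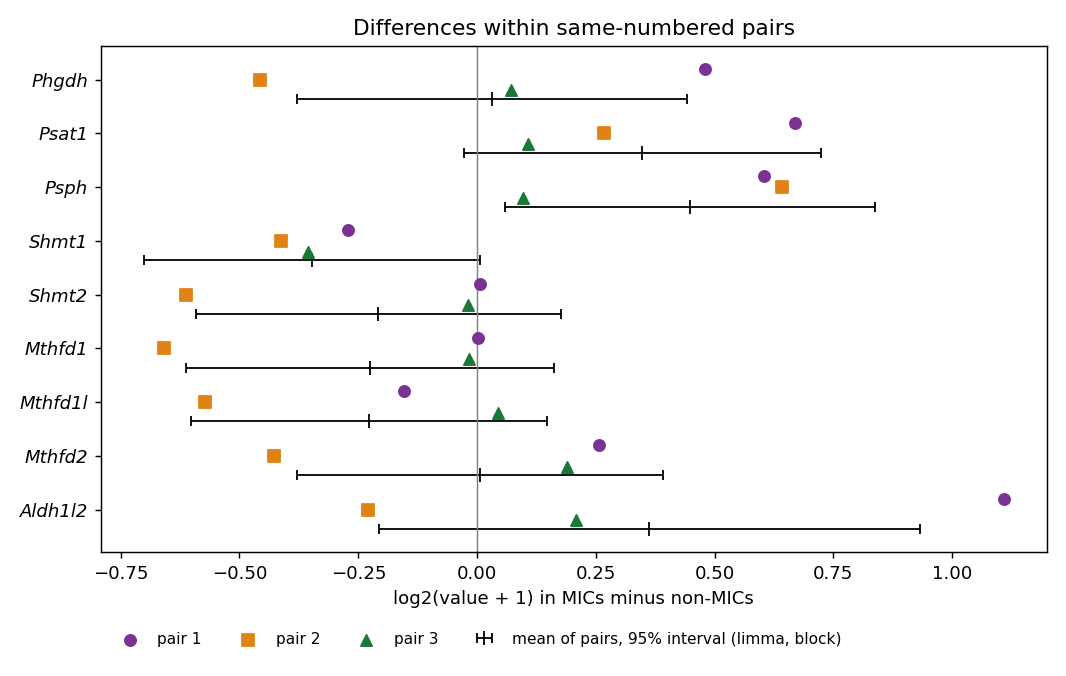
Difference in log2(value + 1) between MICs and non-MICs of the same number for each gene. Circles, squares and triangles are pairs 1, 2 and 3, and black bars give the mean of the pairs with its 95% interval from limma with the replicate block. The bar of Psph, from 0.06 to 0.84, is the only one of the 9 that does not cross 0 before adjustment over all genes.

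Other measured features of the libraries moved with some of these differences, and their part in them was not tested. A list of 14 proliferation genes, among them Mki67 and Top2a, had a median difference of 0.01 in pair 1, -0.46 in pair 2 and 0.04 in pair 3. None of its genes passed the adjusted threshold in limma with or without the block. Mki67, the marker of cycling cells, had values of 6551, 4174 and 22654 in MICs and of 12966, 8207 and 19210 in non-MICs. Of 21 genes known as ATF4 targets or as part of the amino acid response, none passed either. Every pair agreed on a lower level in MICs for 2 of the 21 and on a higher level for 0, against 18.8% and 12.5% of all genes. The medians were -0.02, -0.21 and 0.02 in pairs 1, 2 and 3. Atf4 itself was 9872, 11747 and 13661 in MICs, against 8613, 12632 and 14338 in non-MICs, and Asns, the asparagine synthetase it induces, differed by 0.17, -0.14 and 0.08 in pairs 1, 2 and 3. MIC replicate 2 was the lower library of its pair for Phgdh, Mthfd2, Asns and Mki67, and Atf4 was lower there by 0.10. Other genes of both lists were higher in MICs in that pair, among them Ddit3 by 0.75, Atf3 by 0.36 and Cdk1 by 0.20. Psat1 and Psph were higher in MICs in that pair. Mki67 was lower in MICs in pair 1 too, with a difference of -0.98, whereas Phgdh and Mthfd2 were higher in MICs there.

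The marker genes of cell types gave the background for these comparisons. Epcam, Cdh1, Krt8 and Krt18, which mark mammary epithelium, were abundant in every library, with summed values between 206082 and 573864 in MICs and between 266861 and 683275 in non-MICs. Thy1, the gene of the CD90 gate, was between 301 and 1509 in MICs and between 12.6 and 21.1 in non-MICs, and Cd24a, shared by both gates, differed by -0.01. Of 5 basal or myoepithelial markers, 4 were called higher in MICs with the block (limma), against 0.13% of all genes called. The other, Krt14, differed by 0.50, -0.90 and 0.11 in pairs 1, 2 and 3. The summed values ran from 7960 to 312718 in MICs and from 6512 to 77847 in non-MICs. Both lowest sums are those of replicate 2, in which Krt14 was 2946 in MICs and 5507 in non-MICs. The 6 fibroblast markers summed to between 636 and 1973 in MICs and between 555 and 874 in non-MICs. Of these 6, 4 were higher in MICs in all pairs, against 12.5% of all genes. None was called with the block in limma (2 in edgeR, against 1.41% of all genes). Leukocyte markers summed to at most 300.3 and endothelial markers to at most 39.3, and Ptprc was at 0 in both replicate 1 libraries. The erythroid markers and Cd3e were not in the table. In bulk samples fewer cells of a type and less RNA per cell cannot be told apart, and the part of these cell types in the values of the members was not tested.

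The surrounding pathway was read from a wider list. Of 43 further genes, 40 were in the table and none passed the adjusted threshold in limma without the block, in limma with it or in edgeR with it. In the fit with the block 2 of the 40 had an unadjusted p-value under 0.05, against 11.2% of all genes. At that share 2 of 40 is no result about the list. Every pair put MICs above non-MICs for 2 of the 40 and below them for 10, against 12.5% and 18.8% of all genes. These shares are also the background for the counts in the lists that follow. The median difference was -0.07, against -0.04 over all genes.

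Among 21 genes of the cytosolic folate and methionine cycles, every pair put MICs below non-MICs for 5 and above them for 0. Slc19a1, which encodes the reduced folate carrier, was 660, 995 and 824 in MICs, against 886, 1479 and 896 in non-MICs, below its partner each time, with a mean difference of -0.37 (limma, adjusted p = 0.451 with the block). Mat2b, a regulatory subunit of methionine adenosyltransferase, was 1841, 3270 and 1907 against 1468, 1770 and 1993, higher in MICs in pairs 1 and 2. Fpgs, which adds glutamate to folates and so retains them in cells, differed by -0.26, -0.65 and -0.003. Tyms, the thymidylate synthase, exceeded its non-MIC partner in pairs 1 and 2 but not in pair 3. The purine synthesis genes Gart and Atic differed by -0.46 and -0.51 in pair 2 and by at most 0.05 in size in the others.

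Of 11 measured genes of mitochondrial folate metabolism and glycine cleavage, 1 was higher and 2 were lower in MICs in all pairs. Gcsh, the carrier protein of the glycine cleavage system, was 3469, 3288 and 1220 in MICs, against 2314, 2327 and 1107 in non-MICs, with a difference of 0.41 (limma, adjusted p = 0.423 with the block). Sardh, a mitochondrial dehydrogenase that demethylates sarcosine, was 292, 634 and 185 in MICs, against 443, 878 and 231 in non-MICs, a difference of -0.46 (limma, adjusted p = 0.425 with the block). Gcsh and Sardh were the 2 genes of the 40 with an unadjusted p-value under 0.05. Sfxn3, a transporter of serine into mitochondria, was lower in MICs by 0.42, 0.21 and 0.20. Mthfd2l, the close relative of Mthfd2, was between 404 and 435 in MICs and between 375 and 501 in non-MICs.

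Of 8 measured genes of serine transport and other uses of serine, 1 was higher and 3 were lower in MICs in all pairs. The one that was higher was Sptlc1, a subunit of the enzyme that joins serine to palmitoyl-CoA for sphingolipids, by 0.27, 0.18 and 0.04. Slc1a5, a neutral amino acid carrier, was lower by 0.28, 0.60 and 0.05, and Slc6a9, a glycine carrier, by 0.09, 0.45 and 0.10. None of these differences passed the adjusted threshold.

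**Figure D4:**
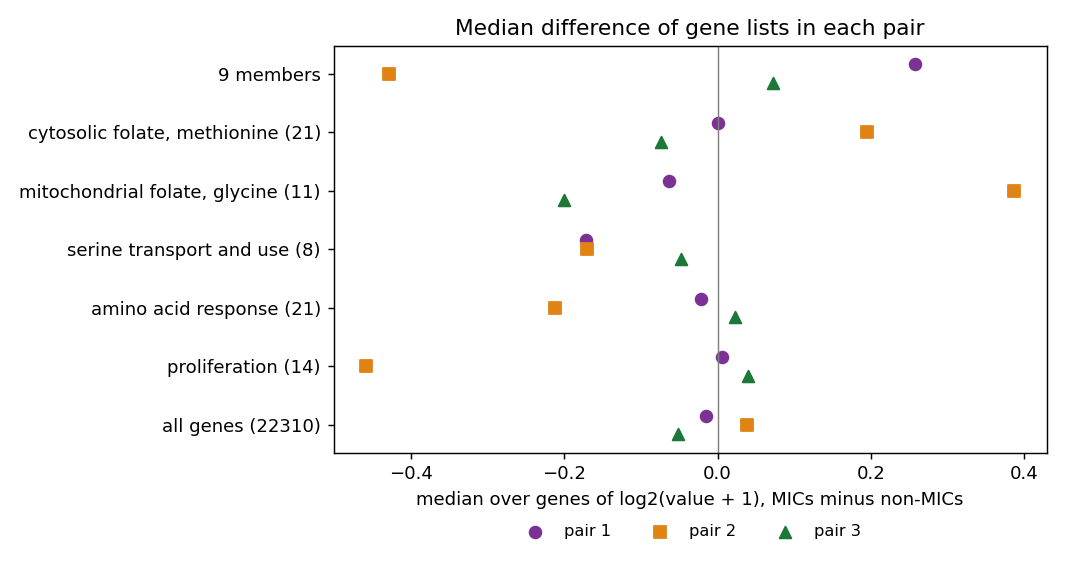
Median over the genes of each list of the difference in log2(value + 1) between MICs and non-MICs, by pair, with the number of measured genes in brackets. In pair 2 the 9 members (-0.43), the proliferation genes (-0.46) and the amino acid response genes (-0.21) lie below 0, as do the serine transport and use genes (-0.17), and the cytosolic (0.19) and mitochondrial (0.39) folate lists lie above it.

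Across the 6 libraries the members fell along more than a single pattern. Correlations of log2(value + 1), which rest on 6 points that share pairs and scaling, ranged from 0.82 between Shmt2 and Mthfd2 to -0.69 between Psph and Mthfd1, and 26 of the 36 were above 0. Mthfd2 followed Aldh1l2 (r = 0.81), Psat1 (0.77), Shmt1 (0.76) and Mthfd1l (0.76). Such values were common over 6 libraries. Ranked by likeness to Mthfd2 among 11172 genes, Shmt2 was at place 422. Aldh1l2, Psat1, Shmt1 and Mthfd1l were at places 480, 681, 742 and 800, so many genes outside the list were closer. Phgdh followed none of the other members closely, its highest r being 0.48 with Psph. Over all 11172 other genes with a mean value of at least 100, those most like Phgdh were Itpkb, Gnb1l and Glo1 (r between 0.988 and 0.991), and those most like Psat1 were Bdkrb2, Isoc2a and Osbpl9 (0.99 each). Pkm, Snd1 and Dnaja3 were most like Shmt2 and Cpsf2, Copa and Stn1 most like Mthfd2, with r between 0.978 and 0.989. From the highest to the lowest library the members differed by 2.15 times in the median, against 1.94 times over the 11173 genes with such a mean.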

How the data were processed

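Reads were aligned by the authors to the mouse transcriptome (GRCm38/mm10) and counted per gene; the paper's methods name Bowtie2 and samtools, the submitters' processing notes STAR and HTSeq, and versions are not given in the sources used here. The deposited signal is counts scaled to the total of each library, which sum to between 34999999 and 35000001. Dividing by what 1 read is worth in a library turned between 99.987% and 100% of its values into whole numbers (tolerance 0.01). Depth ran from 31467281 to 51759769 reads per library. Both replicate 3 libraries were the deepest of their population, at 51759769 reads in MICs and 49904738 in non-MICs. Depth therefore cannot be told apart from replicate number, and its part in the values was not tested. Every listed gene had a value above 0 in at least 3 libraries, and no filter was added. Symbols, positions and exon lengths came from GENCODE vM21, which names 22161 of the 22310 identifiers.

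The 6 libraries were fitted on the log2(value + 1) scale by limma 3.58.1 (R 4.3.3) with a trend and Benjamini-Hochberg adjustment over 22310 genes, without a block because the paper ranks genes unpaired. A fold change on that scale understates the change of low genes. Same-numbered libraries were alike: once group means were taken out, a MIC library and its namesake correlated at 0.573, 0.668 and 0.746 over all genes. With 3 libraries per group, taking out the group means pushes the other combinations below 0, so their average of -0.33 is no separate evidence. The replicate block is therefore given beside the fit without it. The recovered reads were tested by edgeR 4.0.16 and DESeq2 1.42.0. The limma and edgeR fits were tested on simulated data. Members and lists were chosen with earlier results of these data known. Genes outside the 9 were named by rule: called genes or at most 6 of a list, by the smallest limma p-value with the block, sort markers, and the 3 genes most correlated with each of 4 members. Atf4, Asns, Ddit3, Atf3, Top2a, Tyms, Gart, Atic and Mthfd2l were named after their values were seen, and CpG counts were added then too. Promoter windows on chromosome 18 were left out of the motif shares. A planned comparison of protein sequences was not made.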

Additional observations from a re-analysis of the deposited data

How the results depend on the processing

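No member passed the adjusted threshold under any of the 20 alternatives, the lowest adjusted p-value being 0.295 for Psph (DESeq2 with the replicate block), and none of the 40 wider pathway genes did. Over the whole table, limma called 0 genes (322 at an unadjusted p-value under 0.05). The replicate block gave 29 called genes in limma, 315 in edgeR and 133 in DESeq2, and DESeq2 without the block gave 1. Leaving out libraries gave from 0 to 59 called genes; with the block it was 11 without replicate 1, 59 without replicate 2 and 0 without replicate 3. Psat1, Psph, Shmt1, Shmt2 and Mthfd1 kept their sign under all alternatives, but without pair 2 Shmt2 was -0.0065 and Mthfd1 -0.0077, and Psat1 ran from 0.023 without non-MIC replicate 1 to 0.68 without non-MIC replicate 3. Psph ran from 0.25 to 0.62 and Shmt1 from -0.54 to -0.15. Phgdh took the other sign in edgeR (-0.10) and DESeq2 (-0.070) without the block, ran from -0.29 without non-MIC replicate 1 to 0.46 without non-MIC replicate 2, and was -0.19 without pair 1. Mthfd2 ran from -0.23 without MIC replicate 3 to 0.22 without pair 2, and was -0.12 without pair 1, -0.085 without pair 3 and 0.20 without MIC replicate 2. Mthfd1l ran from -0.49 without MIC replicate 3 to 0.066 without MIC replicate 2. Aldh1l2 ran from -0.011 without pair 1 to 0.84 without MIC replicate 2. The directions of these 4 genes, and the sizes for Shmt2, Mthfd1 and Psat1, therefore rest on single libraries or pairs. The median over the 9 members ran from -0.23 without MIC replicate 3 to 0.22 without replicate 2 and with the block. The difference in the ratio of Shmt2 to Shmt1 ran from -0.02 to 0.26 and that of Mthfd2 to Mthfd1 from 0.06 to 0.42. If only differences of at least 0.1 count, 1 member, Psat1, was higher in all pairs, since Psph differed by 0.097 in pair 3. With 3 libraries per population the upper limits of the 95% intervals without the block reach 1.57 for Aldh1l2, 1.18 for Psat1 and 1.07 for Psph on the log2 scale, and 0.93 for Aldh1l2 with the block.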
